A study of Mus musculus with 9 samples.

Results

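The genes described here are Atf4 and 9 genes of the amino acid response, measured in mouse liver: Ddit3, Atf5, Trib3, Chac1, Asns, Psat1, Phgdh, Sesn2 and Stc2. They were listed by name, though with earlier results of these data known. Each is represented by the 1 probe set that the array annotation pairs with its symbol alone. They are 10 of the 19938 genes measured in this way. In the OB-TUDCA group, ob/ob mice received TUDCA (tauroursodeoxycholic acid, a taurine-conjugated bile acid known as a chemical chaperone) by gavage at 500 mg/kg, 2 times a day for 3 weeks. The OB-control group was made up of ob/ob mice given tap water in the same way, and the N-control group of wildtype C57BL/6J mice given tap water in the same way. The ob/ob mice (strain B6.V-Lepob/J) make no functional leptin in any tissue, so OB-control and N-control differed by genotype, OB-TUDCA and OB-control by the agent, and OB-TUDCA and N-control by both. All mice were male, 6 weeks old at purchase and on normal chow, and livers were taken after a fast of 8 h. Liver RNA of 3 mice per group was hybridized to 9 arrays (Affymetrix Mouse Gene 1.0 ST) that are labelled as biological replicates. Values are log2 signals, so that a difference of 1 is a doubling.

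The integrated stress response is the route by which a cell slows translation in general while it raises a set of stress genes. Kinases that sense uncharged tRNA, unfolded protein in the endoplasmic reticulum, heme shortage or double-stranded RNA phosphorylate the initiation factor eIF2, and the mRNA of Atf4 is then translated more efficiently. Atf4, a bZIP transcription factor, pairs with C/EBP family members at composite DNA elements and raises genes for amino acid synthesis, amino acid import and tRNA charging. Because Atf4 is controlled largely at translation, its mRNA level is not a measure of its protein.

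The composite element has the core TGATGNAA, where N is any base. The RefSeq promoter table of mouse build GRCm38.p6 held all 10 genes, with 12 promoters because Atf5 and Psat1 have more than 1, and the 250 bases upstream of each start were searched on both strands. A match was present upstream of Asns and Chac1 among the 10 genes, that is in 2 of the 12 promoters, beside 3.45% of the 32851 promoters in the table. Because the genes were listed for the amino acid response, these counts are no test of enrichment. These stretches, and a short one of Trib3, are shown because they hold the letters of the element that is best known for the amino acid response. Capitals mark the match, which in Chac1 and Trib3 is read from the opposite strand. Asns lies on the minus strand at chr6:7693210-7693459, Chac1 on the plus strand at chr2:119350992-119351241, and the Trib3 stretch on the minus strand at chr2:152344028-152344057.
Asns: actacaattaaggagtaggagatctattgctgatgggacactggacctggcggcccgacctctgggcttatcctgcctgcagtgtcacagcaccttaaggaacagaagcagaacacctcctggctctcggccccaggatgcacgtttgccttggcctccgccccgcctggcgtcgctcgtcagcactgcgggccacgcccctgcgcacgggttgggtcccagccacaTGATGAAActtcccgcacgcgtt
Chac1: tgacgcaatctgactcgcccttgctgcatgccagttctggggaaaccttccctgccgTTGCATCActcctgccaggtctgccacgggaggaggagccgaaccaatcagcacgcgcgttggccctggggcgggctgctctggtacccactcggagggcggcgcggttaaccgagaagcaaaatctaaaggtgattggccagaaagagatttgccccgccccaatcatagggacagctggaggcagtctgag
Trib3: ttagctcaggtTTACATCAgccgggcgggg

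The Asns match ran from base -23 to base -16 relative to the start and read tgatgaaa in the direction of the gene. In Chac1 it ran from -193 to -186 and read tgatgcaa on the opposite strand. Trib3 had no match upstream, but just after the start, from base 15 to base 22, the opposite strand read tgatgtaa. Over the whole window of 300 bases, which also includes the first transcribed bases, 3.97% of the promoters held a match. The other 7 genes had no match in these windows, which says only that these letters do not occur there.

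Among the 9 arrays, N-control replicate 2 stood apart: all 17 measured pancreatic acinar markers were highest there, at a mean log2 signal of 10.3, against 3.91 to 4.37 on the other 8 arrays. Phgdh and Chac1, 2 of the 10 genes, were also highest on that array, and values without it are given beside some of the results that it touches. The 7 hepatocyte markers averaged 12.65 to 12.76 in OB-TUDCA, 12.59 to 12.64 in OB-control and 12.78 to 12.83 in N-control livers, so the tissue carried its defining markers throughout. The 6 stellate cell markers averaged 7.20 to 7.46 in OB-TUDCA, 7.17 to 7.22 in OB-control and 7.15 to 7.19 in N-control livers, and the 4 cholangiocyte markers 5.0 to 5.23, 4.68 to 4.91 and 4.75 to 5.25 in the same order of groups. The acinar markers, far lower outside N-control replicate 2, averaged 4.15 to 4.37 in OB-TUDCA and 4.01 to 4.08 in OB-control livers. The part of these markers in the results was not tested. In whole liver, fewer cells of a type and less RNA per cell cannot be told apart.

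None of the comparisons of the 3 transcription factors of the response passed the threshold, and the differences of Atf4 and Ddit3 were small. Atf4 had log2 signals of 6.54, 6.43 and 6.66 in the 3 OB-TUDCA livers, 6.31, 6.61 and 6.64 in the OB-control livers, and 6.64, 6.72 and 6.73 in the N-control livers. The OB-TUDCA and OB-control values overlapped, while every OB-control value lay below every N-control value, though the nearest ones are equal at the decimals printed. OB-TUDCA exceeded OB-control by 0.03 (SE 0.10, 95% confidence interval -0.21 to 0.26, adjusted p = 0.950), and OB-control was 0.18 below N-control (difference -0.18, interval -0.41 to 0.06, adjusted p = 0.561), in the fit of all genes with limma and Benjamini-Hochberg adjustment that is used throughout. Without OB-control replicate 1, its lowest value, OB-control differed from N-control by -0.07. The interval between the ob/ob groups therefore covered changes in the Atf4 transcript no larger than 0.26 on the log2 scale.

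Ddit3, which encodes Chop, a transcription factor induced by prolonged endoplasmic reticulum stress, lay in the narrowest range of the 10 genes. Its log2 signals were 5.14, 5.22 and 5.07 in OB-TUDCA, 5.14, 5.14 and 5.26 in OB-control and 5.14, 5.03 and 5.14 in N-control livers. On 5 of the 9 arrays the deposited value was exactly the same. The differences were -0.04 for OB-TUDCA against OB-control (interval -0.21 to 0.13), 0.08 for OB-control against N-control (interval -0.10 to 0.25) and 0.04 for OB-TUDCA against N-control.

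Atf5, a bZIP factor of the same family whose translation is also favored when eIF2 is phosphorylated, had its lowest mean in N-control livers. It gave 8.84, 8.57 and 8.72 in OB-TUDCA, 8.81, 9.03 and 9.05 in OB-control and 8.24, 8.23 and 8.71 in N-control livers. All OB-control values were above all N-control values, whereas the OB-TUDCA values overlapped with both. The mean difference was 0.57 between OB-control and N-control (1.48-fold, SE 0.14, interval 0.25 to 0.88, adjusted p = 0.125 in limma). It was -0.25 between OB-TUDCA and OB-control (interval -0.56 to 0.07, adjusted p = 0.538) and 0.32 between OB-TUDCA and N-control (interval 0.004 to 0.64, adjusted p = 0.265). The value of N-control replicate 3, at 8.71, lay apart from the other N-control values, and without it the OB-control difference from N-control was 0.73 with an adjusted p of 0.0325. With single arrays left out that difference ran from 0.48 to 0.73. Of 19 alternatives only 1 passed, with adjusted p from 0.0325 to 0.391 over all of them.

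**Figure D1:**
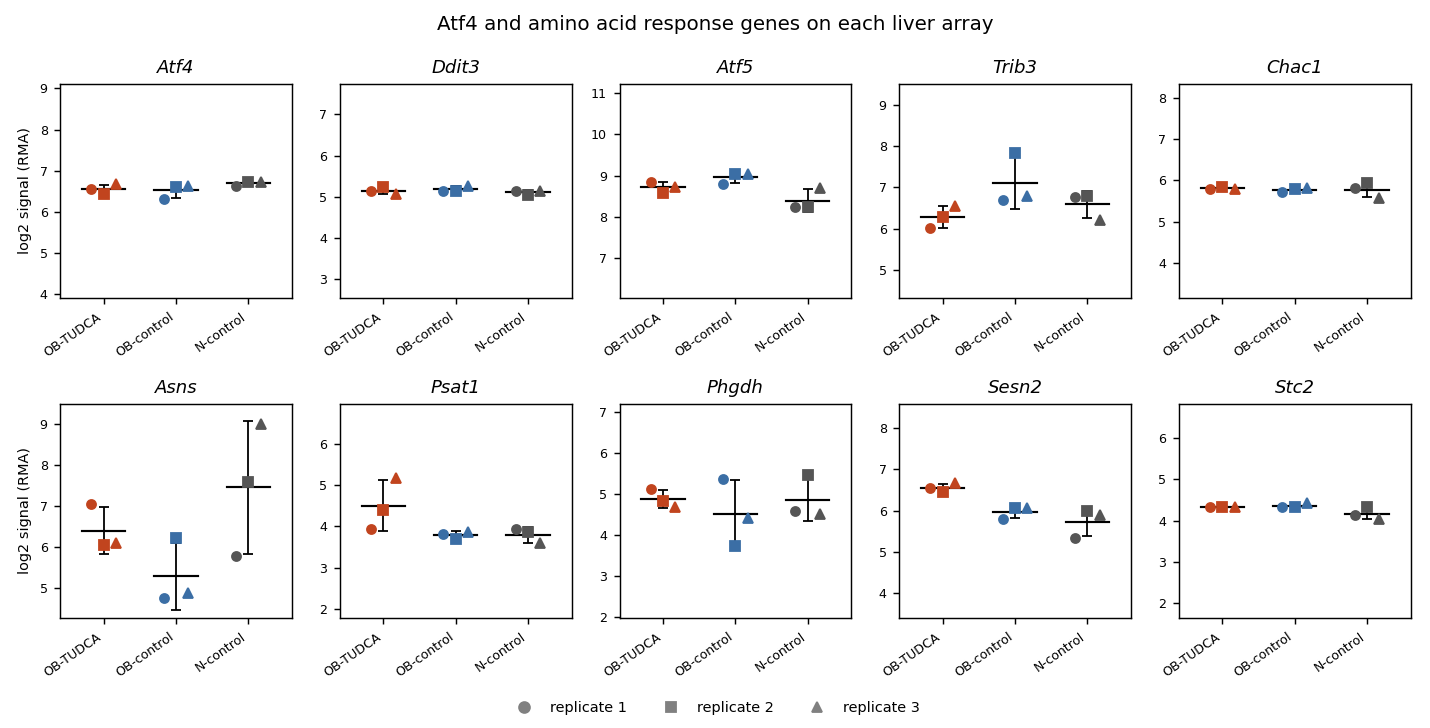
Log2 signal (RMA) of the 10 genes on each of the 9 arrays, with groups on the x axis, 1 point per liver (shape by replicate), the bar at the group mean and whiskers of 1 SD (n = 3), and a y axis of the same span in every panel. Asns spread most, over 4.23 log2 units, and Ddit3 least, over 0.23, while Sesn2 lay at 6.45 to 6.66 in OB-TUDCA livers, above all other livers.

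Trib3 encodes a pseudokinase that is induced by Atf4 and Chop and restrains Atf4 in turn. It had log2 signals of 6.01, 6.28 and 6.56 in OB-TUDCA, 6.70, 7.83 and 6.80 in OB-control and 6.76, 6.80 and 6.22 in N-control livers. Every OB-TUDCA value was below every OB-control value, and 1 OB-control liver (replicate 2) stood about 1 log2 unit above the other livers of its group. The difference between OB-TUDCA and OB-control was -0.82 (1.77-fold lower, SE 0.29, interval -1.48 to -0.17), with an adjusted p of 0.288 in limma. Without OB-control replicate 2 it was -0.46 (adjusted p = 0.432). OB-control exceeded N-control by 0.52 (interval -0.14 to 1.17, adjusted p = 0.533), and those values overlapped. That difference was 0.16 without OB-control replicate 2 and 0.33 without N-control replicate 3.

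Chac1, an enzyme that cleaves glutathione and one of the most responsive Atf4 targets in cultured cells, was nearly level. It had 5.80, 5.85 and 5.79 in OB-TUDCA, 5.71, 5.80 and 5.81 in OB-control and 5.82, 5.93 and 5.57 in N-control livers. The group means differed by 0.04 between OB-TUDCA and OB-control (interval -0.17 to 0.26) and by -0.003 between OB-control and N-control (interval -0.22 to 0.21). Without N-control replicate 2 the difference between OB-control and N-control was 0.07. Chac1 varied by 0.36 across the 9 arrays, and Asns, the other gene with a match to the core letters upstream, by far more.

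Asns, which makes asparagine from aspartate and glutamine, was the most variable gene, with an 18.7-fold span over the 9 arrays. Its log2 signals were 7.06, 6.05 and 6.10 in OB-TUDCA, 4.77, 6.23 and 4.89 in OB-control and 5.79, 7.59 and 8.998 in N-control livers. All 3 groups overlapped, and the N-control livers alone spanned 9.27-fold. OB-control lay below N-control (difference -2.16, 4.47-fold lower, SE 0.72, interval -3.77 to -0.55), with an adjusted p of 0.249 in limma. This value rested on single N-control livers: it was -1.39 without replicate 3 and -3.00 without replicate 1 (adjusted p = 0.100 in the second case). OB-TUDCA exceeded OB-control by 1.10 (2.15-fold, SE 0.72, interval -0.51 to 2.72, adjusted p = 0.597) and was 1.06 below N-control (difference -1.06, adjusted p = 0.489). The difference from N-control was -0.28 when N-control replicate 3 was left out and -1.89 when replicate 1 of that group was.

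Psat1, the aminotransferase of serine synthesis, had 3.94, 4.40 and 5.17 in OB-TUDCA, 3.81, 3.69 and 3.87 in OB-control and 3.94, 3.85 and 3.58 in N-control livers. The OB-control and N-control livers gave close values at this low signal. OB-TUDCA replicate 1 lay near them and replicate 3 highest, so that the OB-TUDCA values were all above those of OB-control and overlapped those of N-control. OB-TUDCA exceeded OB-control by 0.71 (1.64-fold, SE 0.26, interval 0.13 to 1.29, adjusted p = 0.297 in limma). Without OB-TUDCA replicate 3 the difference was 0.38, and without replicate 1 it was 0.99 (adjusted p = 0.0831). Against N-control the difference was likewise 0.71 (adjusted p = 0.182). It was 0.99 with an adjusted p of 0.0425 without OB-TUDCA replicate 1, and 0.38 without OB-TUDCA replicate 3. The mean log2 signal of the 7 Kupffer cell and macrophage markers was 7.07, 7.64 and 7.66 in the OB-TUDCA livers. It was 6.97 to 7.33 in OB-control and 6.98 to 7.27 in N-control livers. Between OB-TUDCA and OB-control, 5 of the 7 had a positive difference (53.6% of all genes) and 0 passed the threshold (0.301%). Clec4f (-0.08) and Adgre1 (-0.01) went the other way. Among OB-TUDCA livers the acinar mean, like Psat1, peaked in replicate 3, at 4.37. The acinar and cholangiocyte means of all OB-TUDCA livers exceeded those of OB-control. Endothelial (7.27 to 7.47 against 7.29 to 7.53) and lymphocyte markers (4.22 to 4.29 against 4.25 to 4.34) did not show this. The part of any of these markers in the Psat1 values was not tested.

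Phgdh, which catalyzes the first step of serine synthesis from a glycolytic intermediate, had 5.11, 4.83 and 4.68 in OB-TUDCA, 5.36, 3.72 and 4.42 in OB-control and 4.59, 5.45 and 4.52 in N-control livers. The 3 groups overlapped, and the OB-control livers alone spanned 3.12-fold. The differences were 0.37 for OB-TUDCA against OB-control (interval -0.49 to 1.23, adjusted p = 0.760) and -0.35 for OB-control against N-control (adjusted p = 0.778), which became -0.05 without N-control replicate 2. Another probe set of Phgdh, shared with Gm6756 and therefore not used, read 5.74 to 5.99 on all 9 arrays. It had 5.74, 5.77 and 5.81 in OB-TUDCA, 5.97, 5.99 and 5.88 in OB-control and 5.88, 5.88 and 5.88 in N-control livers. Its OB-TUDCA values thus lay below all the others, the opposite direction to the chosen probe set between OB-TUDCA and OB-control. The wide spread of the chosen probe set was thus absent from the shared one.

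Sesn2 encodes Sestrin 2, which binds leucine and holds back mTORC1 when leucine is short. It was the 1 gene of the 10 that passed the threshold. Its log2 signals were 6.54, 6.45 and 6.66 in OB-TUDCA, 5.80, 6.07 and 6.07 in OB-control and 5.33, 5.98 and 5.89 in N-control livers. All OB-TUDCA values were above all 6 others, and the OB-control and N-control values overlapped. Sesn2 was higher in OB-TUDCA than in N-control livers by 0.82 (1.76-fold, SE 0.16, interval 0.45 to 1.19, adjusted p = 0.0294 by limma with Benjamini-Hochberg adjustment). Against OB-control the difference was 0.57 (1.49-fold, SE 0.16, interval 0.21 to 0.94), with an adjusted p of 0.181 in limma. OB-control exceeded N-control by 0.24 (interval -0.12 to 0.61, adjusted p = 0.613), a difference that was 0.04 when N-control replicate 1 was left out and 0.37 when N-control replicate 2 was. The call against N-control was lost without N-control replicate 1 (difference 0.62, adjusted p = 0.0516) and without OB-TUDCA replicate 1, 2 or 3 (adjusted p = 0.0619, 0.0851 and 0.0923). It was also lost with only the OB-TUDCA and N-control arrays in the fit (adjusted p = 0.0850) and with an unmoderated test of each gene (adjusted p = 0.144).

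The other sestrins had other orders of groups. Sesn1 had 6.34, 6.56 and 6.45 in OB-TUDCA, 6.54, 6.45 and 6.13 in OB-control and 6.54, 6.47 and 6.21 in N-control livers, with a difference of 0.08 between OB-TUDCA and OB-control (interval -0.21 to 0.36). Sesn3 had 6.59, 6.22 and 6.71 in OB-TUDCA, 7.33, 7.14 and 7.37 in OB-control and 7.21, 7.08 and 7.08 in N-control livers. The OB-TUDCA values of Sesn3 were all below the 6 others, the reverse of the Sesn2 order. Sesn3 fell by 0.61 in OB-TUDCA as compared to N-control livers (SE 0.13, adjusted p = 0.0326), and its difference from OB-control was -0.77 (1.70-fold lower, SE 0.13, adjusted p = 0.0502), just outside the threshold. Over the other ways of processing the data that adjusted p ran from 0.0352 to 0.199.

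**Figure D2:**
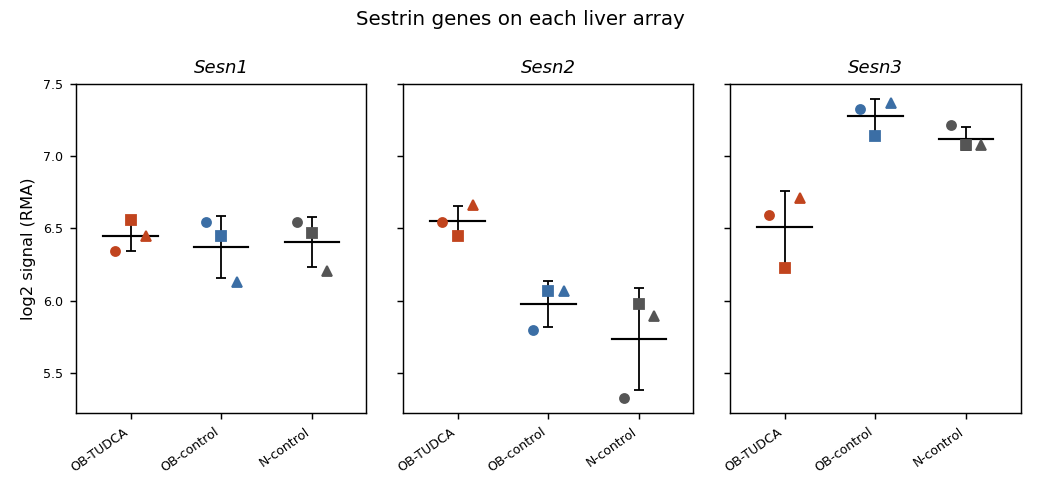
Log2 signal (RMA) of the 3 sestrin genes on each of the 9 arrays, with groups on the x axis, 1 point per liver (shape by replicate as circle 1, square 2 and triangle 3), the bar at the group mean and whiskers of 1 SD (n = 3). Sesn2 was highest and Sesn3 lowest in the OB-TUDCA livers, while the 3 groups of Sesn1 overlapped.

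Stc2, a secreted glycoprotein induced by endoplasmic reticulum stress and Atf4, had 4.32 on all 3 OB-TUDCA arrays. It had 4.32, 4.32 and 4.43 in OB-control and 4.14, 4.32 and 4.05 in N-control livers. On 6 of the 9 arrays the deposited value was exactly the same. Of the 35556 probe sets, 16.0% had an equal value on 4 or more arrays, and the share at 6 or more was not counted. The differences were -0.03 for OB-TUDCA against OB-control (interval -0.22 to 0.15) and 0.19 for OB-control against N-control (interval -0.001 to 0.38, adjusted p = 0.414).

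Counted together, 0 of the 10 genes passed an adjusted p of 0.05 between OB-TUDCA and OB-control, where 0.301% of all genes did (0.115% higher and 0.186% lower). Between OB-control and N-control it was 0 of 10, beside 0.948% of all genes (0.456% higher and 0.492% lower), and between OB-TUDCA and N-control 1 of 10, beside 3.24% (1.35% higher and 1.89% lower). Before adjustment, with a threshold of 0.05 on the p from limma, Sesn2 and Psat1 were higher and Trib3 lower in OB-TUDCA as compared to OB-control, or 2 and 1 of the 10 genes, beside 6.26% and 5.72% of all genes. In OB-control as compared to N-control livers Atf5 was higher and Asns lower at that level, 1 gene each, beside 6.55% and 5.59%. In OB-TUDCA as compared to N-control livers 3 genes were higher (Sesn2, Psat1 and Atf5) and 0 lower, beside 10.4% and 8.15%. Arrays of the groups did not overlap for 3 of the 10 genes between OB-TUDCA and OB-control (13.8% of all genes), for 2 between OB-control and N-control (15.3%) and for 1 between OB-TUDCA and N-control (20.7%). The mean was higher for 6 of the 10 genes in OB-TUDCA against OB-control (53.6% of all genes), for 5 in OB-control against N-control (57%) and for 7 in OB-TUDCA against N-control (59.6%). The median difference of the 10 genes was 0.03, 0.04 and 0.04 in these 3 comparisons, and that of all genes 0.01, 0.02 and 0.04. The comparisons share arrays and are not independent of each other.

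**Figure D3:**
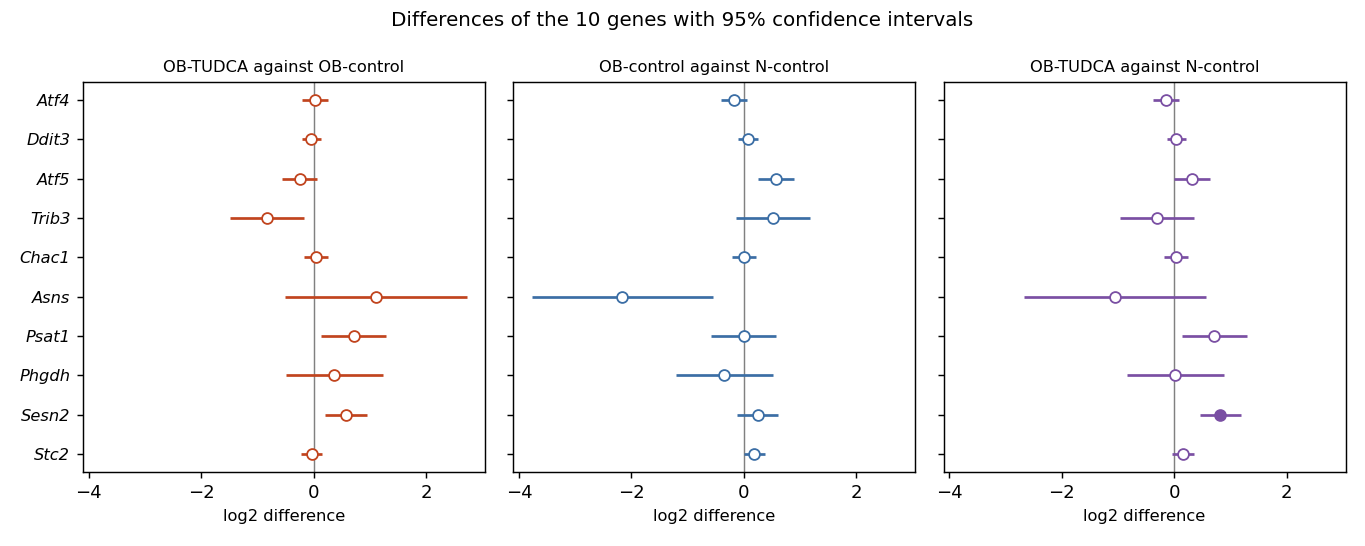
Log2 differences (x axis, higher in the first-named group to the right) of the 10 genes (rows) in the 3 comparisons, with 95% confidence intervals from limma (n = 3 per group). The filled point is the 1 adjusted p under 0.05, Sesn2 in OB-TUDCA against N-control at 0.82, and the intervals of Asns are the widest, from -3.77 to -0.55 in OB-control against N-control.

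Pairs of the 10 genes correlated in either direction from liver to liver. Of their 45 pairs, 22 had a Pearson correlation above 0 over the 9 arrays, with a median of -0.02 and a span of -0.62 to 0.62, the highest being Psat1 with Sesn2. Atf4 correlated positively with 3 of the other 9 genes, and with Asns at 0.59. Once the group means were removed, 22 of the 45 pairs were again above 0 (median -0.01, span -0.69 to 0.86), but Atf4 was then positive with 7 of the other 9, among them Sesn2 (0.65), Atf5 (0.54), Trib3 (0.41) and Asns (0.36). It was negative with Phgdh (-0.59) and Ddit3 (-0.14). The share of all genes that correlated positively with Atf4 was not counted. These values describe 9 arrays that share their groups and their normalization, and no test was applied.

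The gene most like Asns over the 9 arrays was Tsc22d3, which encodes the glucocorticoid-induced leucine zipper protein Gilz. Its Pearson correlation with Asns was 0.97 over the 9 arrays (Spearman 0.93), 0.99 once the group means were removed, and 0.96 without the pair of arrays farthest from the median Asns signal (N-control replicates 2 and 3). Its log2 signals were 7.14, 6.92 and 6.92 in OB-TUDCA, 6.38, 6.75 and 6.31 in OB-control and 6.71, 7.16 and 7.63 in N-control livers. The liver with the highest Asns signal within each group was thus also the one with the highest Tsc22d3 signal. Zdhhc6 (a palmitoyltransferase), C130021I20Rik, Ctr9 (a subunit of the Paf1 transcription elongation complex) and Alg10b (a glucosyltransferase of N-glycan assembly) came next, at 0.92, 0.92, 0.91 and 0.91. C130021I20Rik hardly varied and was dim, at 3.51 to 3.58 over the 9 arrays. As the top 5 of all genes ranked on 9 arrays, they are a description of these livers.

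The 5 genes most like Atf4 were 3010003L21Rik, Cnpy2 (a chaperone-like protein of the endoplasmic reticulum), Vmn1r50 (a vomeronasal receptor), Sntb2 and Ogfr, at Pearson correlations of 0.94, 0.94, 0.90, 0.90 and 0.90. Several of these rested on OB-control replicate 1 and OB-TUDCA replicate 2, where Atf4 was lowest. Without that pair of arrays the correlation was 0.84 for 3010003L21Rik, 0.61 for Cnpy2 and -0.26 for Vmn1r50. Signals were low and varied little for 3010003L21Rik (4.06 to 4.32) and Vmn1r50 (2.28 to 2.47).

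**Figure D4:**
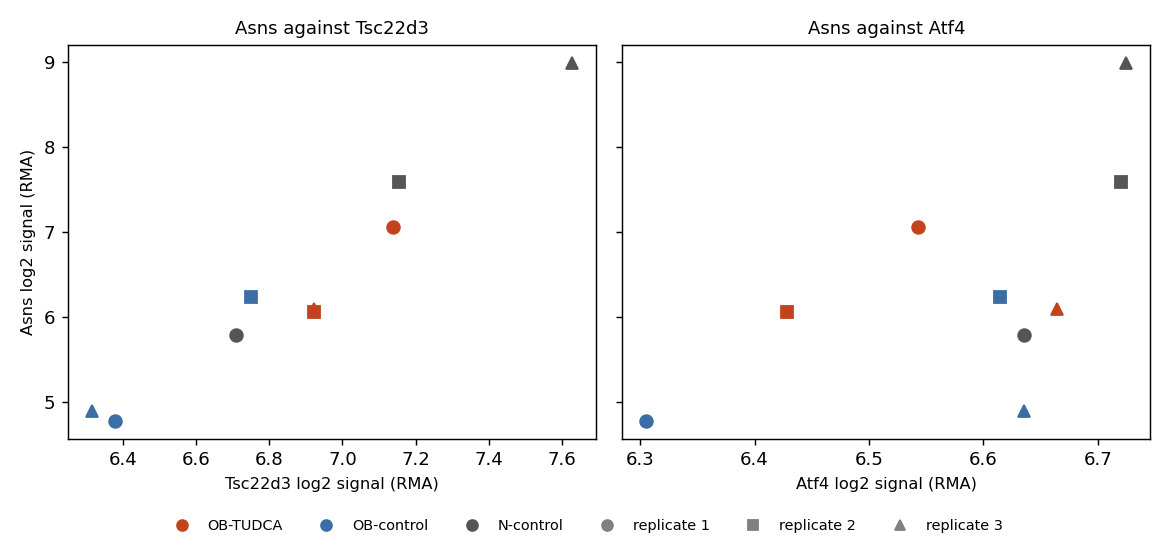
Asns log2 signal (y axis, RMA) against that of Tsc22d3 (left) and Atf4 (right) on the 9 arrays, colored by group and shaped by replicate. Points follow a line for Tsc22d3 (Pearson correlation 0.97), where OB-TUDCA replicates 2 and 3 lie on top of each other, and scatter for Atf4 (0.59).

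Beyond these 10 genes, 28 other reported Atf4 targets were measured. In OB-TUDCA as compared to OB-control livers their median difference was 0.22 (0.01 for all genes), and 21 of the 28 had a higher mean (53.6% of all genes). None of the 28 passed the threshold, while at an unadjusted p under 0.05 in limma 8 were higher and 2 lower (6.26% and 5.72% of all genes). The largest differences were those of Igfbp1, a secreted binder of insulin-like growth factors (1.29, SE 0.47, adjusted p = 0.299), Cth, the enzyme that makes cysteine from cystathionine (-0.96, SE 0.31, adjusted p = 0.248), and Ddit4, an inhibitor of mTORC1 (0.95, SE 0.41, adjusted p = 0.405). Arrays of both groups overlapped for all 3. Cebpb, which encodes the partner C/EBP beta and is named after its values were seen, lay just outside the threshold. It had 8.26, 8.14 and 8.22 in OB-TUDCA, 7.48, 7.81 and 7.45 in OB-control and 8.13, 7.98 and 7.97 in N-control livers, with a difference of 0.63 between OB-TUDCA and OB-control (SE 0.11, adjusted p = 0.0529) and of -0.45 between OB-control and N-control (adjusted p = 0.110). It passed between OB-TUDCA and OB-control without OB-control replicate 2 (0.74, adjusted p = 0.0265) and under 5 of 9 other ways of processing, with adjusted p from 0.0265 to 0.198 over all of them.

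In OB-control as compared to N-control livers 2 of the 28 targets rose and 0 fell, where 0.456% of all genes rose and 0.492% fell. Vldlr, a lipoprotein receptor, had 7.14, 7.45 and 7.20 in OB-control and 6.00, 5.76 and 6.26 in N-control livers, a rise of 1.26 (SE 0.16, adjusted p = 0.00887). Gpt2, the mitochondrial alanine aminotransferase, rose by 0.75 (SE 0.11, adjusted p = 0.0183). In OB-TUDCA as compared to N-control livers 4 rose and 0 fell (1.35% and 1.89% of all genes), namely Vldlr (1.45, SE 0.16, adjusted p = 0.00318), Slc3a2 (1.07, SE 0.20, adjusted p = 0.0228), Nrbf2 (0.64, SE 0.14, adjusted p = 0.0445) and Gpt2 (0.61, SE 0.11, adjusted p = 0.0215). Slc3a2 is the common heavy chain of several amino acid transporters and Nrbf2 a subunit of an autophagy kinase complex. Slc3a2 had 9.43, 9.68 and 10.26 in OB-TUDCA, 8.77, 8.94 and 9.19 in OB-control and 8.56, 8.76 and 8.85 in N-control livers, with no overlap between OB-TUDCA and the rest.

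The serine and one-carbon enzymes of cytosol and mitochondria, which continue from the pathway of Phgdh and Psat1, were split. Between OB-TUDCA and OB-control livers the median difference of the 9 measured was -0.35 (0.01 for all genes). On average 3 of them were higher in OB-TUDCA (53.6% of all genes) and 6 lower. None passed the threshold, and at an unadjusted p under 0.05 in limma 1 was higher and 5 lower (6.26% and 5.72% of all genes). The largest differences were -0.64 for Mthfd1 (adjusted p = 0.154) and -0.64 for Aldh1l1 (adjusted p = 0.0817), both cytosolic folate enzymes, and 0.53 for Mthfd1l (adjusted p = 0.308), the mitochondrial formate-producing synthetase. Mthfd1l had 6.61, 7.03 and 7.22 in OB-TUDCA, 6.01, 6.67 and 6.60 in OB-control and 5.11, 5.31 and 5.15 in N-control livers. It rose by 1.76 in OB-TUDCA (SE 0.19, adjusted p = 0.00318) and by 1.23 in OB-control livers (SE 0.19, adjusted p = 0.0231), each as compared to N-control. Aldh1l1 fell by 0.59 in OB-TUDCA as compared to N-control livers (SE 0.13, adjusted p = 0.0457). In this list 1 rose and 1 fell between OB-TUDCA and N-control (1.35% and 1.89% of all genes). Between OB-control and N-control 1 rose and 0 fell (0.456% and 0.492% of all genes).

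The 18 cytosolic tRNA synthetases, which charge tRNA with amino acids, had a median difference of 0.12 between OB-TUDCA and OB-control, and 14 of the 18 had a higher mean in OB-TUDCA (53.6% of all genes). None passed the threshold in any of the 3 comparisons. At an unadjusted p under 0.05 in limma, 3 were higher and 1 lower in that comparison (6.26% and 5.72% of all genes). In OB-control against N-control 0 were higher and 1 lower (6.55% and 5.59%), and in OB-TUDCA against N-control 5 were higher and 2 lower (10.4% and 8.15%). The largest differences between OB-TUDCA and OB-control were -0.34 for Tars, 0.33 for Gars and -0.30 for Eprs. Between OB-TUDCA and N-control they were -0.49 for Tars and -0.42 for Eprs, with Vars at 0.35, and between OB-control and N-control -0.23 for Qars, 0.19 for Mars1 and 0.17 for Lars.

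The 15 genes of the eIF2 kinases, eIF2 and their regulators act above Atf4. Their median difference was 0.09 between OB-TUDCA and OB-control, with 13 of 15 at a higher mean (53.6% of all genes), and -0.07 between OB-control and N-control, with 4 of 15 at a higher mean (57%). None passed the threshold in any comparison, also without N-control replicate 2, the array with the acinar markers. The differences from N-control given here include that array, and its part in them was not tested. At an unadjusted p under 0.05 in limma 2 were higher and 0 lower between OB-TUDCA and OB-control (6.26% and 5.72% of all genes). Between OB-control and N-control 0 were higher and 1 lower (6.55% and 5.59%), and between OB-TUDCA and N-control 2 were higher and 0 lower (10.4% and 8.15%). Eif2s2, the beta subunit of eIF2, gave 0.35 between OB-TUDCA and OB-control and -0.37 between OB-control and N-control, 2 comparisons that share the OB-control arrays. Next in size between OB-TUDCA and OB-control were Eif2b3 (0.27) and the double-stranded RNA kinase Eif2ak2 (0.20). Between OB-control and N-control they were the endoplasmic reticulum stress kinase Eif2ak3 (-0.29) and Eif2b2 (0.19), and between OB-TUDCA and N-control Eif2b3 (0.45), Eif2b5 (0.28) and Impact (0.24), an inhibitor of the amino acid sensing kinase.

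The Atf6 and Ire1 branches of the unfolded protein response, which raise chaperones of the endoplasmic reticulum, were measured by 18 genes. In OB-control livers 17 of the 18 had a lower and 1 a higher mean than in N-control livers, where 57% of all genes had a higher mean, with a median difference of -0.18 (0.02 for all genes), and at an unadjusted p under 0.05 in limma 0 were higher and 7 lower (6.55% and 5.59% of all genes). None passed the threshold, with -0.83 for Sdf2l1 (adjusted p = 0.142), -0.48 for Pdia6 (adjusted p = 0.131) and -0.46 for Dnajb9 (adjusted p = 0.151). These values include N-control replicate 2, the array with the acinar markers, and its part in them was not tested. Without it none passed in either direction, and the lower means and the median without it are not given here. In OB-TUDCA as compared to OB-control livers the median was 0.13 and 12 of 18 had a higher mean (53.6% of all genes). Again none passed (before adjustment at 0.05, 6 were higher and 2 lower, beside 6.26% and 5.72% of all genes), with 0.60 for Creld2 (adjusted p = 0.0863), 0.45 for Manf (adjusted p = 0.0865) and 0.43 for Dnajb9. Between OB-TUDCA and N-control the median was -0.02, and Sdf2l1 (-0.58), Pdia6 (-0.51) and the sensor Ern1 (-0.37) had the largest differences, none past the threshold (before adjustment at 0.05, 1 was higher and 5 lower, beside 10.4% and 8.15% of all genes).

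Of the 12 genes related to the sestrins and to Mtor, Sesn3 was described above. Castor1, an arginine sensor that holds back mTORC1, had 5.14, 5.21 and 5.55 in OB-TUDCA, 5.02, 5.02 and 5.02 in OB-control and 4.58, 4.69 and 4.85 in N-control livers. The 3 OB-control values were equal, and this lack of spread enters the error that the groups share. Castor1 rose by 0.59 in OB-TUDCA as compared to N-control livers (SE 0.12, adjusted p = 0.0265), so that 1 gene of the list rose and 1 fell in that comparison (1.35% and 1.89% of all genes). With only the OB-TUDCA and N-control arrays in the fit, its adjusted p in limma was 0.0896. None passed between OB-TUDCA and OB-control (before adjustment at 0.05 in limma, 1 was higher and 2 lower, beside 6.26% and 5.72% of all genes), where after Sesn3 the largest differences were -0.33 for Depdc5 and 0.28 for Castor1. None passed between OB-control and N-control (before adjustment, 3 were higher and 0 lower, beside 6.55% and 5.59% of all genes), where Mtor gave 0.63 (adjusted p = 0.178), Tsc2 0.33 and Castor1 0.32.

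Most of these calls on single pathway genes depended on the arrays used. With an unmoderated test of each gene on its own in place of limma, 0 genes of these lists passed after adjustment in any comparison. Without N-control replicate 2, the array with the acinar markers, 1 of the 2 calls among Atf4 targets in OB-control against N-control was left, and 1 of the 4 in OB-TUDCA against N-control. In OB-TUDCA against N-control, Vldlr and Mthfd1l passed whichever array was left out. The calls on Gpt2, Slc3a2, Nrbf2, Aldh1l1, Castor1 and Sesn3 were each lost without N-control replicate 1, without N-control replicate 2 and without OB-TUDCA replicate 2 (adjusted p of 0.0713 to 0.174 in these fits), and some of them without a further array. In OB-control against N-control, the call on Vldlr was lost without N-control replicate 1 (adjusted p = 0.0511). That on Gpt2 was lost without N-control replicate 1 or 2 and without OB-control replicate 1 or 3 (adjusted p of 0.0705 to 0.0960), and that on Mthfd1l without any 1 of the N-control replicates, OB-control replicate 3 or OB-TUDCA replicate 2 (adjusted p of 0.0527 to 0.108). Calls were also gained under some alternatives. In OB-TUDCA against OB-control, Aldh1l1 passed without OB-TUDCA replicate 1 (-0.77, adjusted p = 0.0325). In OB-control against N-control, 0 of the Atf6 and Ire1 genes passed, against 2 lower without OB-control replicate 2 and 1 lower with array weights.

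**Figure D5:**
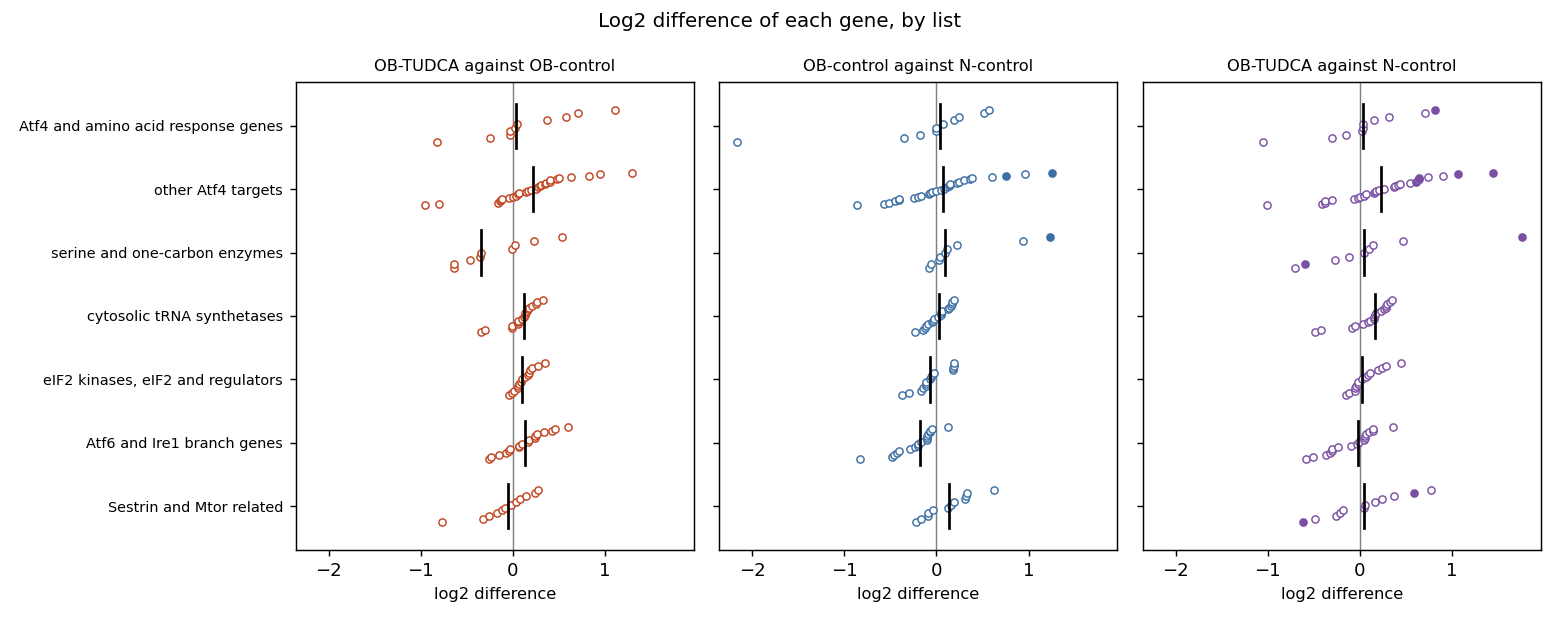
Log2 differences (x axis, higher in the first-named group to the right) of single genes in each list (rows) for the 3 comparisons, filled where the adjusted p was under 0.05, with a black bar at the median of the list. The bar of the other Atf4 targets stands at 0.22 in OB-TUDCA against OB-control, and that of the Atf6 and Ire1 branch genes at -0.18 in OB-control against N-control. N-control replicate 2, the array with the acinar markers, is included.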

How the data were processed

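Log2 signals per probe set were deposited by the authors, who had made them with RMA in Affymetrix Expression Console (version not given in the sources used here). RMA corrects background, equalizes the distributions of the arrays and summarizes probes, which compresses differences of dim probe sets. The deposited values were used without further normalization or filter. Probe sets with exactly 1 symbol (21789 of 35556) were averaged per symbol, and the 1621 with several symbols and the 12146 without one were not used.

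The 9 arrays were fitted with 3 group means in R 4.3.3 with limma 3.58.1 (6 residual and 3.33 prior degrees of freedom), two-sided, with Benjamini-Hochberg adjustment over 19938 genes and a threshold of 0.05. The study's own selection by SAM and fold change was not used. Arrays have no read depth, and their number limits the precision. With 3 against 3, an exact permutation test cannot go below p = 0.1. The fit was tested on simulated data.

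The 10 genes and the lists were chosen with earlier results of these data known. Of the lists, the genes named are up to 6 past the threshold per comparison or, where none passed, the 3 with the largest difference, and for likeness the 5 with the highest correlation. Of the listed genes, 28 of 31 other Atf4 targets, 9 of 10 one-carbon enzymes, 18 of 20 tRNA synthetases, 15 of 16 eIF2 genes, 18 of 18 Atf6 and Ire1 genes and 12 of 13 sestrin and Mtor genes were measured. Promoters came from RefSeq (GRCm38.p6). Figures were drawn with matplotlib 3.10.9 in Python 3.11.15. Alternatives were another normalization, a filter on signal, other variance models, array weights, the compared groups alone, an acinar covariate, a replicate block and leaving out each array.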

Additional observations from a re-analysis of the deposited data

How the results depend on the processing

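Values of the 10 genes were recomputed under 10 other ways of processing, counts over all genes and over the lists under 9 of these, and all with each of the 9 arrays left out. Of 570 values for the 10 genes, 543 kept their direction and their side of the threshold, 6 lost the call (all Sesn2 in OB-TUDCA against N-control) and 2 gained one (Atf5 in OB-control against N-control and Psat1 in OB-TUDCA against N-control, with 1 array left out). Several settings cannot change a difference, among them the unmoderated test, the replicate block and leaving out an array of the group not compared. The number of kept directions is therefore fixed in part by design. Between OB-TUDCA and OB-control 0 of the 10 genes passed in limma or under any alternative (3 at an unadjusted p under 0.05 in limma, 1 with an unmoderated test per gene). In OB-TUDCA against N-control 1 passed, against 0 with only the 2 groups compared, 0 with an unmoderated test per gene and 0 to 1 with an array left out, and in OB-control against N-control 0 to 1.

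Over all genes, 60 passed between OB-TUDCA and OB-control, 97 after a further quantile normalization, 131 with the dimmest genes left out, 0 with only the 2 groups compared (2060 at an unadjusted p under 0.05), 0 with the acinar covariate (2190), 2 with an unmoderated test per gene and 0 to 135 with an array left out. Between OB-control and N-control 189 passed, 358 with array weights, 65 with only the 2 groups, 72 with the acinar covariate, 32 with an unmoderated test per gene and 60 to 266 with an array left out. Between OB-TUDCA and N-control 646 passed, 345 with only the 2 groups, 320 with the acinar covariate, 90 with an unmoderated test per gene and 193 to 788 with an array left out. The causes were not tested. Over the alternatives, the called genes of the other Atf4 targets were 0 to 1 higher in OB-TUDCA against OB-control, 0 to 2 higher and 0 to 1 lower in OB-control against N-control, and 0 to 6 higher in OB-TUDCA against N-control.

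In 19 cases the sign of a difference near 0 turned. With the acinar covariate the difference between OB-control and N-control was 0.074 for Chac1 and 0.043 for Psat1. With an array left out, the ranges that crossed 0 were, for OB-TUDCA against OB-control, -0.080 to 0.085 for Atf4, -0.077 to 0.0019 for Ddit3 and -0.020 to 0.80 for Phgdh. For OB-control against N-control they were -0.10 to 0.075 for Chac1, -0.78 to 0.039 for Phgdh and -0.10 to 0.072 for Psat1. For OB-TUDCA against N-control they were -0.064 to 0.12 for Chac1, -0.0024 to 0.077 for Ddit3 and -0.15 to 0.32 for Phgdh. None of these passed in limma under any alternative.

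The replicate number as a block gave an adjusted p of 0.0198 for Sesn2 in OB-TUDCA against N-control and changed no call of the 10 genes, while in OB-TUDCA against OB-control it added calls on Aldh1l1 (adjusted p = 0.0352), Sesn3 (0.0352) and Slc3a2 (0.0446). Arrays with the same number correlated in their deviations at -0.08 to 0.21. Whether the number stands for a shared batch is not given by the labels and was not tested. Over all genes, the block gave 60, 189 and 871 calls for OB-TUDCA against OB-control, OB-control against N-control and OB-TUDCA against N-control. With 3 arrays per group, the intervals printed are the limit of what these data resolve.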
